A study of Rattus norvegicus with 20 samples.

Results

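Rat vagina cells that had been recovered from skin transplants were compared with rat oesophagus cells recovered in the same way, to see what still separated the 2 epithelia after both had lived in the skin of a mouse. The comparison rests on 4 of the 20 arrays of the series, 2 of recovered vagina cells and 2 of recovered oesophagus cells, and covers 14506 genes, each represented by 1 of 29215 probe sets. Both tissues came from EGFP rats (Sprague-Dawley background, constitutive EGFP under an actin promoter) at postnatal day 200. In the recovered groups, cultured cells had gone through a first transplantation into newborn mouse skin carried on nude mice. Grafts with green hair follicles were then dissociated, and the cells were cultured again on irradiated mouse 3T3-J2 feeder cells, sorted for EGFP and hybridized as 100 ng of total RNA per array. The other 2 groups used here, vagina and oesophagus cells before transplantation, were cultured and sorted likewise without passing through a graft. According to the study's methods the cells were grown in parallel and in duplicate, so the p-values below measure only the spread between duplicate cultures and not that between rats or grafts. The sample titles carry marks that the labels do not explain and that differ between the 2 tissues (IV and RC5 for recovered vagina, III and RC4 for recovered oesophagus) and between the stages (IV for vagina and V for oesophagus before transplantation), so neither tissue nor stage can be told apart from them.

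The vagina and the oesophagus are both lined by a stratified squamous epithelium, in which basal cells that express Tp63 and Krt14 divide and feed layers of flattening, differentiating cells. In the oesophagus and other moist mucosae the upper layers make the keratin pair Krt4 and Krt13 together with envelope proteins such as Sprr3, whereas the drier epidermis makes Krt1 and Krt10. The 2 organs arise far apart along the body axis. Factors such as Pax9 and Sox2 are known from foregut epithelium, and posterior Hox genes, Pax2, Pax8 and the estrogen receptor from the reproductive tract. Gata3 and Lhx2 are transcription factors with known roles in hair follicles.

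Levels are on the log2 scale, on which 1 unit is 2-fold, and each difference is given as vagina minus oesophagus with the standard error of the fit. Genes are called higher or lower if they passed both a fold of 2 and an adjusted p of 0.05 (limma). Array medians lay between 5.31 and 5.55, and duplicates correlated across probe sets with a Pearson's r of 0.9957 in recovered vagina and 0.9959 in recovered oesophagus, with an SD of the duplicate difference of 0.228 and 0.222. The basal keratinocyte markers were strongly expressed on all 4 arrays. Krt14 measured 13.19 and 13.11 in recovered vagina, against 13.19 and 13.24 in recovered oesophagus, and Tp63 measured 9.45 and 9.58 in vagina, against 9.85 and 9.85 in oesophagus. Krt5 is not among the genes measured. None of 14 basal keratinocyte genes was called, with a median difference of −0.05 (all genes 0.01). With 0.979% of all genes called, a list this short would often hold none, so little is read from the count. Sox2, a member of this list, differed by −0.75 (limma adjusted p = 0.00189), under the fold threshold. A bulk array cannot tell fewer cells of a kind from less RNA per cell, which applies to every level below. Levels under 4.77, the 40th percentile of probe set means, are called low, and a difference that involves a low group may be limited by background, which was not tested.

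In recovered cells 142 of 14506 genes differed between the epithelia, or 0.979% of those tested, with 49 higher in vagina (0.338%) and 93 lower (0.641%). The 2 duplicates of one tissue lay wholly above those of the other for all 142, as they did for 48.6% of all genes. In 39 of the 142 the lower group was at a low level, and in 4 both groups were. Without the threshold on fold 603 genes had an adjusted p under 0.05, and only 26 of the called genes differed by more than 4-fold. The gene with the largest measured fold was Myef2 (30.5), but its level in recovered vagina was low, and with that level set to 4.77 the fold was 19.5. Before transplantation the same 2 epithelia had differed in 307 genes (2.12%), with 224 higher and 83 lower in vagina. The difference itself changed with transplantation in 353 genes (2.43%), being shifted upward after transplantation in 76 and downward in 277.

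**Figure D1:**
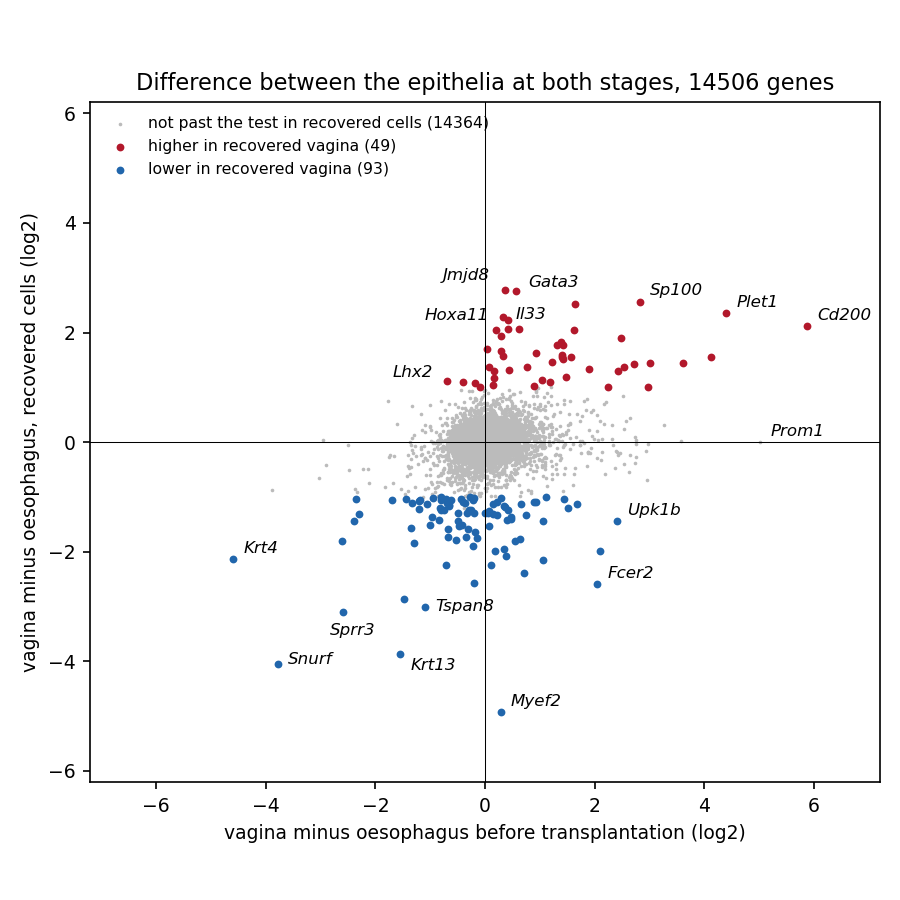
Difference between vagina and oesophagus cells (log2, vagina minus oesophagus) in recovered cells on the vertical axis and before transplantation on the horizontal axis, with 1 point per gene for 14506 genes. Red points are the 49 genes higher and blue points the 93 genes lower in recovered vagina, and grey points were not called in recovered cells. Gata3, Il33 and Hoxa11 lie high near the middle of the horizontal axis, Sprr3, Snurf and Krt4 lie low at the left, and Prom1 lies at the far right with a difference near 0 in recovered cells.

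The 3 markers given with this comparison were all called in recovered cells, which is a description and not independent support. Gata3 and Lhx2 were the only 2 called of 17 hair follicle factors measured, and the median of the 17 was 0.17. In recovered oral mucosa and footpad the means were 8.29 and 9.28 for Gata3, and 6.79 and 7.35 for Lhx2. Such levels were thus not particular to recovered vagina. Gata3, a zinc-finger factor of hair follicle and epidermis, measured 8.20 and 8.11 in recovered vagina, against 5.43 and 5.38 in recovered oesophagus, a difference of 2.75 ± 0.13 (limma adjusted p = 1.67e-08). Before transplantation the corresponding levels were 7.26 and 7.40 in vagina, against 6.85 and 6.70 in oesophagus, so that the groups were apart but by less than 2-fold (0.56 ± 0.13, limma adjusted p = 0.0136). The difference thus widened by 2.19 ± 0.18 (limma adjusted p = 5.24e-06). Lhx2, a LIM homeobox factor of hair follicle stem cells, measured 6.94 and 6.82 in recovered vagina, against 5.74 and 5.77 in recovered oesophagus (1.12 ± 0.22, limma adjusted p = 0.0105). Before transplantation Lhx2 measured 5.31 and 5.13 in vagina, against 5.70 and 6.14 in oesophagus, which was not called (−0.70 ± 0.22, limma adjusted p = 0.0693), and the change between stages was called (1.82 ± 0.31). The Lhx2 call rests on all 4 arrays: leaving out any single one kept the direction (1.06 to 1.18) but gave a limma adjusted p between 0.0585 and 0.0987. Sprr3, a small proline-rich envelope protein of moist squamous epithelium, measured 5.67 and 5.86 in recovered vagina, against 8.80 and 8.94 in recovered oesophagus (−3.10 ± 0.15, limma adjusted p = 1.83e-08). A like difference had been present before transplantation (−2.60 ± 0.15), and its change was not called (−0.51 ± 0.21, limma adjusted p = 0.24).

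**Figure D2:**
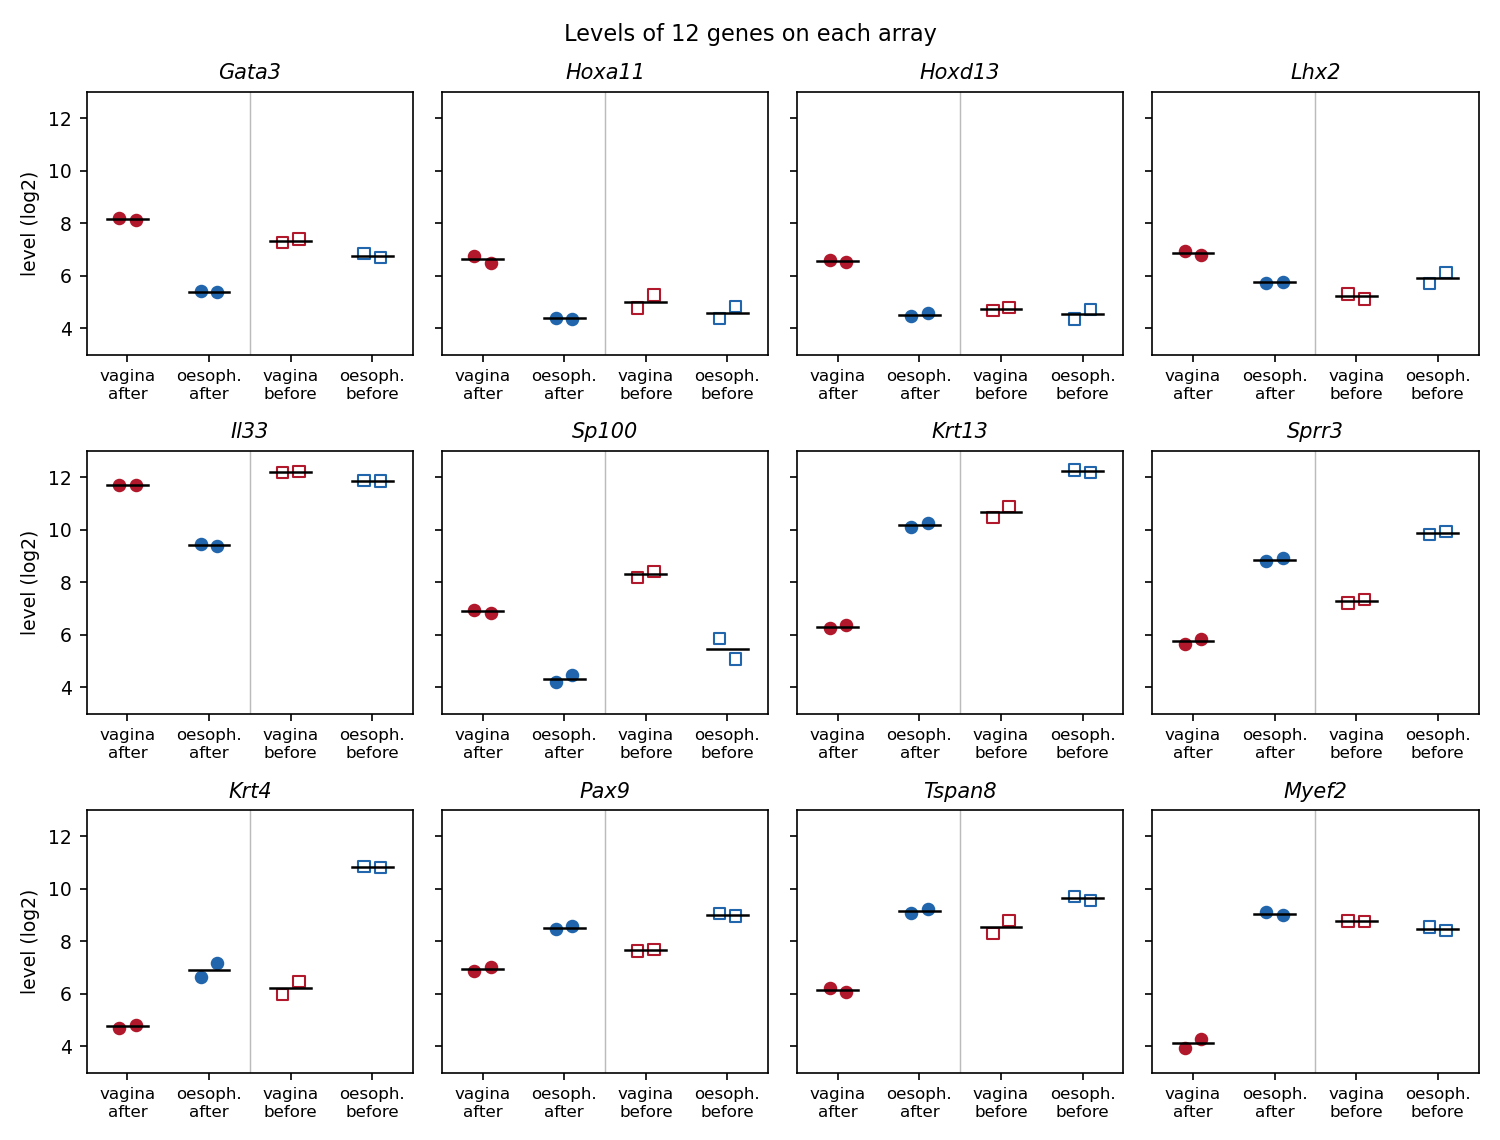
Log2 level of 12 genes on each array in vagina after, oesophagus after, vagina before and oesophagus before transplantation, from left to right in every panel. Red marks are vagina and blue marks oesophagus, filled circles are recovered cells and open squares cells before transplantation, and the black bar is the mean of 2 arrays. In every panel the recovered vagina arrays lie wholly above or wholly below the recovered oesophagus arrays, and for Myef2 only the recovered vagina arrays stand apart from the other 3 groups.

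Genes of mucosal differentiation formed the group with the most members lower in recovered vagina. Of 14 measured, 6 were lower (Krt13, Sprr3, Krt4, Mal, Tgm3 and Serpinb11), against 0.641% of all genes, and none was higher. Sprr3 is a marker given with this comparison, and the lists were chosen with earlier results of these data known. The count is therefore a description and not independent support. The median difference of the 14 was −0.59. Before transplantation 5 of them had been lower in vagina, against 0.572% of all genes, and none higher, with a median of −0.60. Krt13, the type I keratin of the mucosal pair, measured 6.27 and 6.37 in recovered vagina, against 10.12 and 10.24 in recovered oesophagus (−3.86 ± 0.17, limma adjusted p = 1.36e-08). Its partner Krt4 measured 4.72 and 4.80 in vagina, against 6.63 and 7.18 in oesophagus (−2.14 ± 0.18, limma adjusted p = 6.18e-06). Both keratins of the pair thus separated the recovered cells. Before transplantation Krt13 was high in both, at 10.46 and 10.90 in vagina, against 12.28 and 12.18 in oesophagus, and its difference widened after transplantation by 2.31 ± 0.24 (limma adjusted p = 4.93e-05). Krt4 had been 4.60 ± 0.18 lower in vagina before transplantation, and this difference changed by 2.46 ± 0.26 (limma adjusted p = 4.68e-05). The Krt4 level in recovered vagina was low (mean 4.76), so its recovered difference and this change may be limited by background.

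The other mucosal genes did not share one history. Tgm3, a transglutaminase that cross-links envelope proteins, was lower in vagina in recovered cells (−1.81 ± 0.15) and before transplantation (−2.61 ± 0.15). Mal, a raft protein of apical transport, measured 4.78 and 5.09 in recovered vagina, against 6.86 and 6.998 in recovered oesophagus (−1.99 ± 0.20, limma adjusted p = 4.1e-05), but was not called before (0.19 ± 0.20). Serpinb11 was lower in recovered vagina (−1.11 ± 0.23), a call that was lost on leaving out any 1 of the 4 arrays (limma adjusted p 0.0684 to 0.131). Cnfn, an envelope protein past the test before transplantation, had a difference of −0.82 in recovered cells, under the fold threshold. Among 12 epidermal cornification genes, Krt10, the type I keratin of dry epidermis, was the only one called. It measured 6.03 and 5.96 in recovered vagina, against 4.83 and 5.08 in recovered oesophagus (1.05 ± 0.14), and fell under the fold threshold without the first oesophagus array (0.92). Krt1, its partner, measured 5.01 and 4.74 in vagina, against 4.58 and 4.24 in oesophagus, which did not pass the test (limma adjusted p = 0.311).

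Positional factors separated the recovered cells through few genes. Hoxa11, a posterior Hox gene of the reproductive tract and limb, measured 6.76 and 6.50 in recovered vagina, against 4.42 and 4.37 in recovered oesophagus (2.23 ± 0.18, limma adjusted p = 5.34e-06). Hoxd13, a posterior Hox gene of the urogenital region and digits, measured 6.60 and 6.55 in vagina, against 4.48 and 4.58 in oesophagus (2.05 ± 0.16, limma adjusted p = 2.41e-06). Neither was called before transplantation (0.42 ± 0.18 and 0.21 ± 0.16), and the change was called for both (1.81 ± 0.26 and 1.84 ± 0.22). In the other 9 groups of the series Hoxa11 group means lay between 4.36 and 5.03 and those of Hoxd13 between 4.42 and 4.79, so recovered vagina stood above every other group for both genes. These were the only 2 called of 22 homeobox cluster genes measured, against 5 called before transplantation (Hoxb7 higher in vagina, Hoxa2, Hoxa5, Hoxc4 and Hoxc5 lower). The shares of all genes called were 0.979% in recovered cells and 2.12% before. Pax9, a paired-box factor of the foregut, was the only one called of 20 foregut genes. It measured 6.86 and 7.04 in recovered vagina, against 8.46 and 8.58 in recovered oesophagus (−1.57 ± 0.14, limma adjusted p = 1.49e-05), with −1.35 ± 0.14 before transplantation, and the change was not called (−0.22 ± 0.20, limma adjusted p = 0.65). Sox2, another foregut factor, measured 7.41 and 7.51 in recovered vagina, against 8.23 and 8.19 in recovered oesophagus (−0.75 ± 0.12), under the fold threshold, and its larger difference before transplantation (−2.12 ± 0.12) had narrowed by 1.37 ± 0.17.

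**Figure D3:**
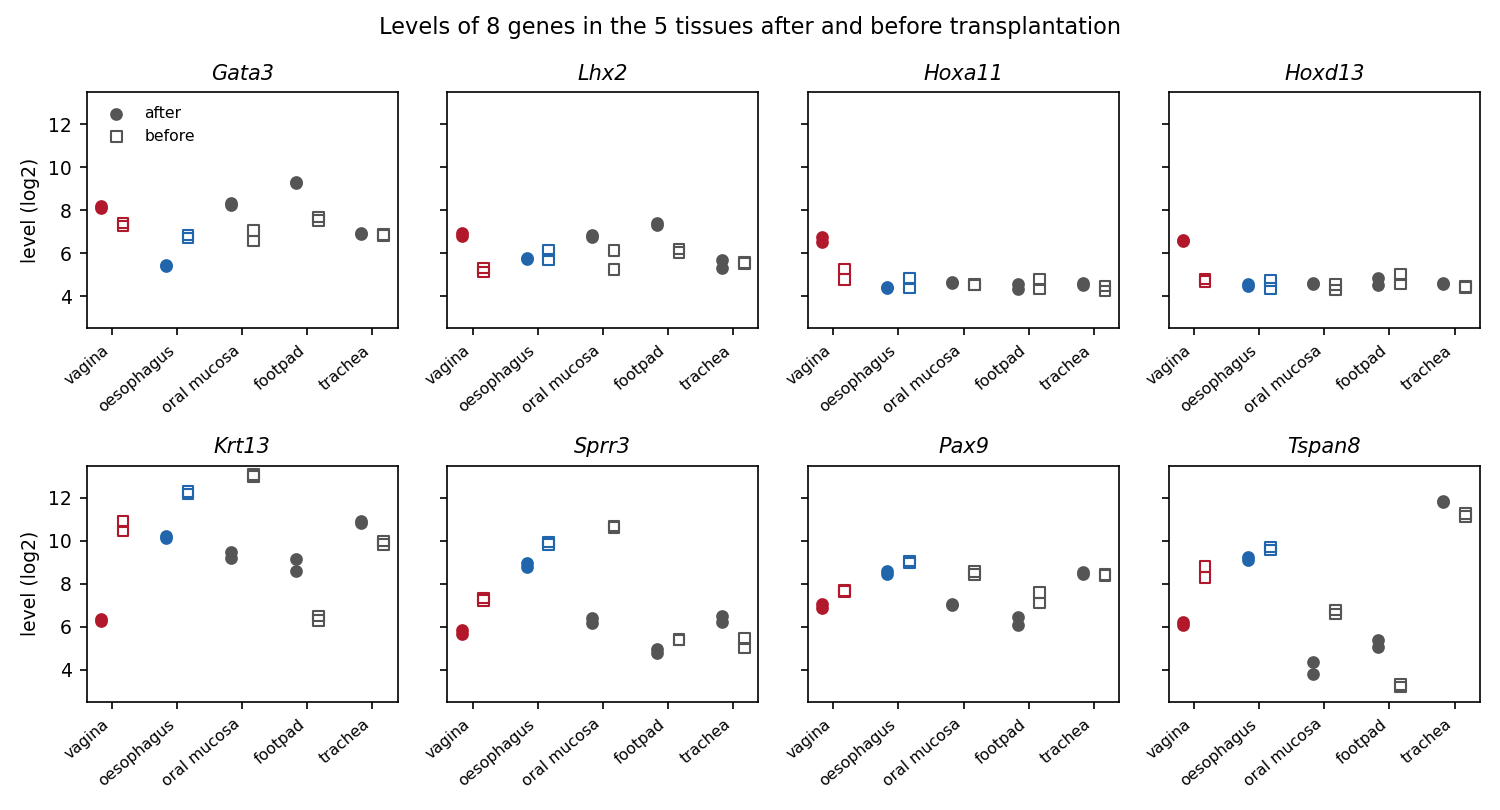
Log2 level of 8 genes on each of the 20 arrays, by tissue, with recovered cells as filled circles left of cells before transplantation as open squares, vagina in red, oesophagus in blue and the other 3 tissues in grey. Hoxa11 and Hoxd13 are highest in recovered vagina, recovered oesophagus has the lowest Gata3 of all groups, and the mean Krt13 level is lowest in recovered vagina, next to footpad before transplantation.

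The reproductive-tract genes that had marked vagina cells before transplantation were not called higher in recovered vagina. Of 19 urogenital genes 8 were higher in vagina before transplantation (Pax2, Pax8, Emx2, Esr1, Tbx2, Tbx3, Gata2 and Upk1b) and none was lower. The shares of all genes were 1.54% higher and 0.572% lower. In recovered cells 2 were higher (Hoxa11 and Hoxd13) and 2 lower (Tbx2 and Upk1b), with a median of −0.04, against 0.338% and 0.641% of all genes. Pax8 and Esr1 are described in full after their values were seen. Pax8 measured 4.54 and 4.91 in recovered vagina, against 4.71 and 4.66 in recovered oesophagus, so the groups overlapped. Before transplantation the Pax8 difference had been 2.75, and it changed by −2.71 (limma adjusted p = 7.86e-05). The estrogen receptor gene Esr1 likewise measured 4.80 and 5.07 in recovered vagina, against 4.98 and 4.97 in recovered oesophagus, with a difference before transplantation of 1.60. Upk1b, a uroplakin of urothelial plaques, measured 4.76 and 4.89 in recovered vagina, against 6.40 and 6.13 in recovered oesophagus (−1.44 ± 0.15, limma adjusted p = 5.99e-05), opposite to its difference before transplantation (2.41 ± 0.15). Tbx2, a T-box repressor, was lower in recovered vagina (−1.05 ± 0.20), but its adjusted p ranged up to 0.117 over the alternatives and was above 0.05 without the first vagina array or without either oesophagus array.

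Genes of simple epithelium that had been higher in vagina before transplantation were not called in recovered cells. Of 18 measured, 5 had been higher in vagina before transplantation, namely the keratins Krt7, Krt8, Krt18 and Krt19 and the membrane protein Prom1, and 2 had been lower (Elf5 and Tspan8). The shares of all genes were 1.54% higher and 0.572% lower. Prom1 changed most among genes called before transplantation only. It measured 4.72 and 4.35 in recovered vagina, against 4.45 and 4.62 in recovered oesophagus, and 10.06 and 10.19 in vagina before transplantation, against 5.15 and 5.06 in oesophagus. None of these 5 was called in recovered cells, and the change between stages was called for all but Krt18 (limma adjusted p = 0.146). Tspan8, a tetraspanin, and Krt20 were the 2 members called in recovered cells, both lower in vagina. Tspan8 measured 6.22 and 6.06 in vagina, against 9.08 and 9.22 in oesophagus (−3.01 ± 0.18, limma adjusted p = 2.93e-07), and its difference before transplantation was smaller (−1.09 ± 0.18).

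Stromal transcripts were called in vagina mostly before transplantation. Of 24 fibroblast and matrix genes 10 were higher in vagina before transplantation, among them Col1a1 and Col3a1, and none was lower. The shares of all genes were 1.54% higher and 0.572% lower. In recovered cells Vim was higher (1.00 ± 0.15) and Sparc lower (−1.12 ± 0.12), with a median of −0.06, against 0.338% and 0.641% of all genes. The summed log2 level of the 24 genes was 143.3 and 143.0 in recovered vagina, against 143.8 and 144.2 in recovered oesophagus. Col1a1 measured 6.77 and 6.92 in recovered vagina, against 6.75 and 6.80 in recovered oesophagus. Both calls depended on single arrays: Vim fell under the fold threshold without the second vagina array or the second oesophagus array (0.99 and 0.85) and Sparc without the first vagina array (−0.97). No gene was called among 14 leukocyte, 9 endothelial, 7 melanocyte, 8 Schwann and neural, and 16 muscle genes, a count that is near the 0.979% called among all genes for lists this short. The leukocyte gene Ptprc measured 3.21 and 3.46 in vagina, against 3.37 and 3.49 in oesophagus. The part of other rat cell types in the differences was not tested beyond these lists.

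A few cytokine and receptor genes of the interleukin-1 family were among those higher in recovered vagina. Of 47 chemokine and interleukin genes 3 were higher (Il33, Il18 and Il1r2), against 0.338% of all genes, none was lower, and the median was −0.03. The other 44 were not called, among them Il1a, Il1b, Il1rn and Il1r1 of the same family, and the lowest difference was −0.90. Il33, an alarmin held in the nucleus of barrier cells, measured 11.70 and 11.69 in recovered vagina, against 9.44 and 9.38 in recovered oesophagus (2.28 ± 0.11, limma adjusted p = 2.01e-08). Before transplantation Il33 was high in both tissues, at 12.19 and 12.22 in vagina, against 11.88 and 11.86 in oesophagus, and the difference widened by 1.95 ± 0.15 (limma adjusted p = 4.02e-06). Il18 measured 4.76 and 4.42 in recovered vagina, against 3.22 and 3.07 in recovered oesophagus (1.45 ± 0.20). Both of these groups were at a low level, so the size of the Il18 difference is uncertain and is not set against that before transplantation. The decoy receptor gene Il1r2 had a difference of 1.08 ± 0.20, which lost its call without the second vagina array or the first oesophagus array (limma adjusted p 0.0911 and 0.076). Related genes outside that list, chosen after their values were seen, were also higher in recovered vagina. They were Casp1, the protease that matures interleukin-18 (1.43), Il1rl1, the receptor of interleukin-33 (1.01), and Il36rn, an antagonist of the interleukin-36 receptor (1.09). Casp1 and Il1rl1 had differed by 2.72 and 2.97 before transplantation, and the differences changed by −1.29 and −1.96. Recovered oesophagus was at a low level for Casp1, Il36rn and Il1r2 (means 3.64, 4.35 and 4.34). With that level set to 4.77 their folds were 1.23, 1.59 and 1.57. None of 27 interferon response genes was called. Bst2, an antiviral membrane protein, came nearest, at 6.14 and 6.12 in vagina, against 5.13 and 5.14 in oesophagus (1.00 ± 0.11, just under the fold threshold, and past it with each array centred on its median).

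Promoter sequences were available from RefSeq (build GRCr8) for 38 of the 49 genes higher and 70 of the 93 genes lower in recovered vagina. A TATA box (TATAAA on either strand) within the 60 bases before the start was found in 5 of 40 promoters of genes higher in vagina (12.5%) and in 4 of 72 promoters of genes lower (5.56%), against 4.24% of the promoters of all genes measured and 3.69% of all promoters in the table. The 5 genes were Il33, Plet1, Cpa4, Mmp3 and Krt10, whose differences are given here and with their gene groups. Their 60 bases before the start are shown with the TATA box in capitals, which begins 29 bases before the start in Il33, Plet1 and Krt10, 30 in Cpa4 and 32 in Mmp3. The motif was chosen after the values were seen, and the match is a description only.
Il33, chr1:237134886-237134945, + strand: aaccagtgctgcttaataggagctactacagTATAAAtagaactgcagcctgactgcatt
Plet1, chr8:59738579-59738638, + strand: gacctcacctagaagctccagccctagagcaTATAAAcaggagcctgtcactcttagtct
Cpa4, chr4:60155615-60155674, + strand: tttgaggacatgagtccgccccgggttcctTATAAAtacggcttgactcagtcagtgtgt
Mmp3, chr8:12925221-12925280, + strand: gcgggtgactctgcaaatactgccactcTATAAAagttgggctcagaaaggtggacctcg
Krt10, chr10:84839161-84839220, − strand: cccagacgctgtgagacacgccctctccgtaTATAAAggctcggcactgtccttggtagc
Plet1, an epithelial surface protein of placenta and hair follicle, measured 7.70 and 7.58 in recovered vagina, against 5.39 and 5.19 in recovered oesophagus (2.35 ± 0.18). Cpa4, a carboxypeptidase, measured 7.24 and 6.999 in recovered vagina, against 5.26 and 4.86 in recovered oesophagus (2.06 ± 0.17), and had not been called before transplantation.

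A few genes of the oxidant response were lower in recovered vagina. Of 29 glutathione and oxidant genes 3 were lower (Gstm1, Hmox1 and Nqo1), against 0.641% of all genes, and none higher, with a median of −0.02. Gstm1, a glutathione transferase, measured 7.99 and 8.11 in vagina, against 9.60 and 9.67 in oesophagus (−1.59 ± 0.11, limma adjusted p = 1.29e-06). Heme oxygenase Hmox1 measured 7.11 and 7.24 in vagina, against 8.41 and 8.52 in oesophagus (−1.29 ± 0.12), and the quinone reductase Nqo1 9.20 and 9.13 in vagina, against 10.26 and 10.40 in oesophagus (−1.17 ± 0.11). Gsr, which regenerates glutathione, and Blvra, which acts after heme oxygenase, were lower too (−1.04 and −1.16) and were picked after their values were seen. Picked in the same way, the desaturase genes Fads1 and Fads2 of unsaturated fatty acid synthesis were both lower, at −1.40 and −1.37. Fads2 measured 9.51 and 9.51 in recovered vagina, against 10.80 and 10.96 in recovered oesophagus, while the differences before transplantation were under the fold threshold (0.47 and 0.48).

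Signalling genes gave scattered calls. Of 51 growth factor genes Igfbp2, Igfbp3 and Pdgfc were lower in recovered vagina and none was higher, with a median of −0.08. Igfbp2, a binding protein for insulin-like growth factors, measured 7.88 and 7.75 in vagina, against 9.71 and 9.73 in oesophagus (−1.90 ± 0.13, limma adjusted p = 9.98e-07). The Pdgfc call (−1.09 ± 0.18) was lost without the first vagina array (−0.93). Of 36 BMP and TGF-beta genes the ligand Tgfb3 was higher (1.19 ± 0.18) and the receptor Bmpr1b (−1.58 ± 0.18) and the target Id2 (−1.20 ± 0.12) were lower, with a median of 0.01. Among 22 retinoid genes Dhrs3, a retinal reductase, was lower (−1.24 ± 0.11), and among 26 hypoxia and glycolysis genes the vasodilator peptide gene Adm (−1.18 ± 0.10). Its relative Adm2, outside the lists, measured 5.75 and 5.61 in vagina, against 8.25 and 8.23 in oesophagus (−2.56 ± 0.12, limma adjusted p = 1.67e-08). None was called of 50 Wnt genes (Wnt7b −0.78 ± 0.09), 18 Notch genes (Dll1 −0.76 ± 0.12), 28 cell cycle genes, 18 cholesterol synthesis genes, 21 immediate early genes or 33 junction genes. In all, 22 of 42 gene lists had no member called. With 0.979% of all genes called, lists of these sizes would often hold none, so nothing particular to them is read from these counts.

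**Figure D4:**
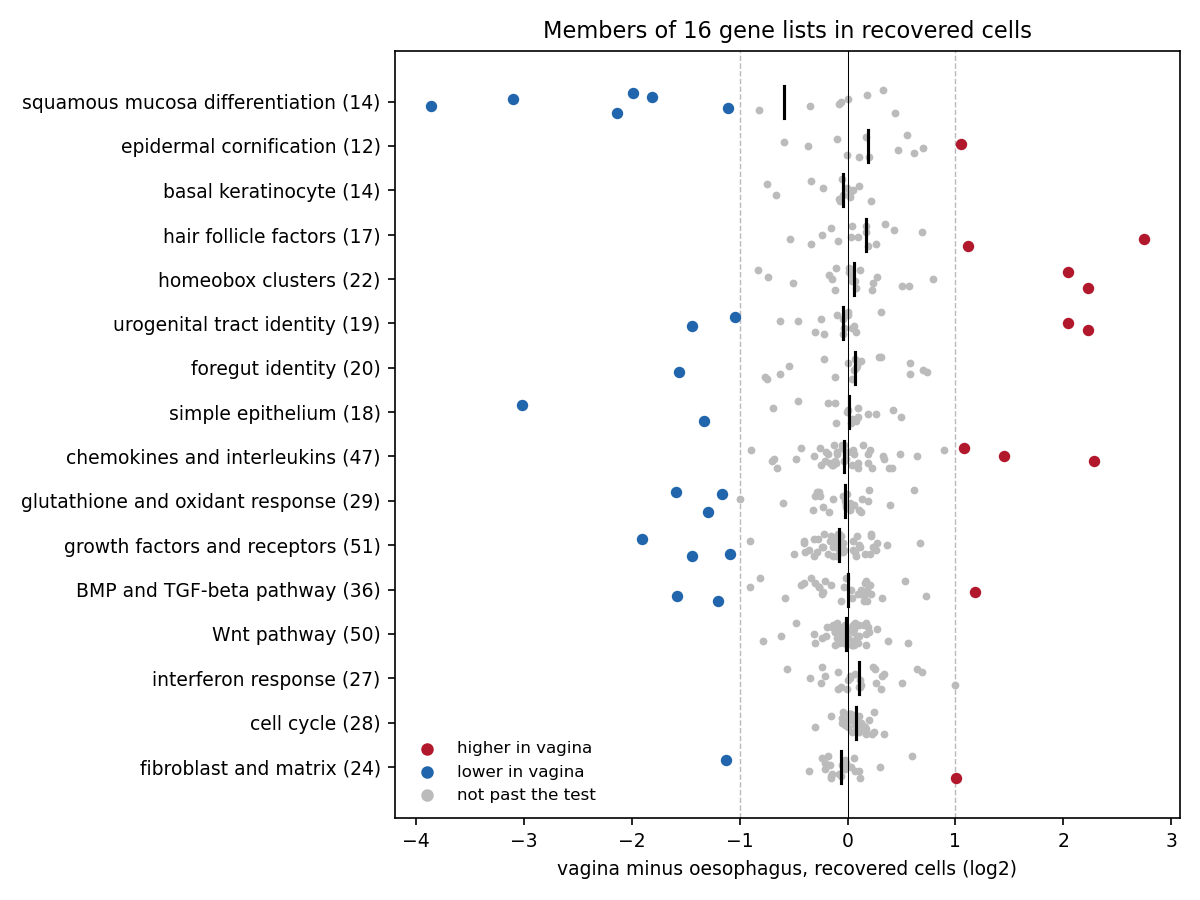
Difference between recovered vagina and recovered oesophagus (log2) for each measured member of 16 gene lists, with the number of members in parentheses. Red points were higher and blue points lower in vagina, grey points were not called, the black bar is the list median and the dashed lines mark a 2-fold difference. The mucosal list has its median at −0.59 with 6 blue points, while the medians of the other lists lie close to 0.

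Proteases and their inhibitors differed in both directions, where 0.338% of all genes were higher and 0.641% lower in recovered vagina. Of 40 protease genes Mmp3, a stromelysin, was higher, at 8.74 and 8.70 in recovered vagina, against 6.58 and 7.06 in recovered oesophagus (1.90 ± 0.21), and the airway-trypsin-like proteases Tmprss11f and Tmprss11g were lower (−1.02 ± 0.18 and −1.23 ± 0.19). Tmprss11f was at a low level in both tissues, so the size of its difference is uncertain, and it lost its call without the first vagina array or the first oesophagus array (limma adjusted p 0.0513 and 0.0777). Another gene of that family, Tmprss11b, measured 8.19 and 8.22 in vagina, against 9.92 and 9.99 in oesophagus (−1.75), and was picked after its value was seen. Among 20 serpin genes Serpina1 and Serpinb9, an inhibitor of granzyme B, were higher (1.59 ± 0.15 and 1.37 ± 0.10) and Serpinb11 lower. Cd200, an immunoregulatory membrane protein, was the only one called of 30 integrin, laminin and adhesion genes. It measured 6.15 and 6.03 in recovered vagina, against 4.39 and 3.55 in recovered oesophagus (2.12 ± 0.22). Its level in recovered oesophagus was low, with duplicates further apart than in vagina, and its call was lost with the 4 arrays fitted alone (limma adjusted p = 0.0687). Before transplantation the difference was 5.87 ± 0.22.

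A share of the recovered difference was already present in the cultures before transplantation. Of the 142 called genes 46 had been called in the same direction before, 26 higher and 20 lower in vagina, which is 32.4% of the genes called in recovered cells and 15% of those called before. The share was 53.1% for genes higher in recovered vagina and 21.5% for genes lower. Among all genes 1.54% had been called higher and 0.572% lower in vagina before transplantation. These base shares differ in the same direction, so no greater persistence of either group is read from the 2 figures. The arrays of the 2 stages are separate, and across all 14506 genes, which are not independent replicates, the 2 differences correlated with a Pearson's r of 0.226. Ranked on the smaller of their 2 differences, the leading genes higher in vagina at both stages were Sp100, Plet1, Cd200, Mmp3, Rassf9, Prtfdc1, C1r and Plscr2. Sp100, a nuclear body protein, measured 6.95 and 6.85 in recovered vagina, against 4.20 and 4.48 in recovered oesophagus (2.56 ± 0.19), with 2.82 ± 0.19 before transplantation. Its family member Sp140, picked after its value was seen, had 1.56 in recovered cells and 1.40 before. The complement protease gene C1r had 1.56 ± 0.12 in recovered cells and 1.57 ± 0.12 before, whereas the difference of Plet1 narrowed by 2.05 ± 0.25 (4.40 ± 0.18 before). The leading genes lower in vagina at both stages were Snurf, Sprr3, Krt4, Tgm3, Krt13, Car2, Slc35g1 and Pax9. Among the leading genes of both directions, Sp100, Cd200, Plscr2, Krt4 and Tgm3 had a recovered group at a low level. Before transplantation oesophagus was low for Rassf9, Cd200 and Plscr2 (means 3.25, 4.11 and 3.79). Vagina was then low for Tgm3 and Snurf (3.95 and 4.70). The differences and ranks of all these genes may be limited by background. Snurf, an imprinted gene that shares its transcript with Snrpn, measured 5.22 and 4.62 in recovered vagina, against 8.92 and 9.02 in recovered oesophagus (−4.05 ± 0.20, limma adjusted p = 2.08e-08), with −3.78 ± 0.20 before. Snrpn itself had −0.73 in recovered cells and −0.82 before, both under the fold threshold.

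Other genes were called in recovered cells and not before. Of the 142 called genes 87 had not been called before, 23 higher and 64 lower in recovered vagina, and for 57 of these 87 the change between stages was called as well. For the other 30 it was not, and 32 of the 87 had an adjusted p under 0.05 before transplantation at a fold under 2, of which 23 had the same sign (limma). Myef2, a repressor named for myelin gene expression, was near-equal before transplantation, at 8.77 and 8.75 in vagina, against 8.55 and 8.40 in oesophagus. In recovered cells it measured 3.95 and 4.30 in vagina, against 9.11 and 9.01 in oesophagus (−4.93 ± 0.11, limma adjusted p = 5.74e-12). Jmjd8, a JmjC-domain protein, showed the reverse, at 7.41 and 7.59 in recovered vagina, against 4.83 and 4.61 in recovered oesophagus (2.78 ± 0.16), after a level of 7.99 ± 0.06 in vagina and 7.62 ± 0.22 in oesophagus (SD, n = 2) before transplantation. Akr1b1, an aldo-keto reductase, measured 8.75 and 8.96 in recovered vagina, against 11.22 and 11.27 in recovered oesophagus (−2.39 ± 0.09), and its other probe set gave −1.96. The remaining genes of this kind with the largest change were Adm2, Abcg3l3 and Emb, all lower in recovered vagina. Conversely 252 genes were called before transplantation only, with the change called for 179, of which 143 had been higher in vagina. After Prom1, the genes of this kind with the largest change were Slc17a3, Hyal1, Gnai1, Arhgef6 and Mgp, all higher in vagina before transplantation. Hyal1, a hyaluronidase, measured 5.75 and 5.85 in recovered vagina, against 5.69 and 5.86 in recovered oesophagus, and differed by 3.57 ± 0.15 before.

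Only 9 genes were called in opposite directions at the 2 stages, and all 9 were lower in recovered vagina after having been higher in vagina before transplantation. More genes had been higher (224) than lower (83) in vagina before transplantation, and more were lower (93) than higher (49) in recovered cells. The shared direction is therefore not read as a result. The 9 genes were Fcer2, Apobec1, Akap12, Igfbp3, Upk1b, Padi4, Sparc, Tbx2 and Bst1. Fcer2, Apobec1 and Bst1 were at a low level in recovered vagina (means 3.97, 4.71 and 4.61). Their recovered differences may be limited by background. Fcer2, a low-affinity receptor for immunoglobulin E, measured 3.79 and 4.15 in recovered vagina, against 6.46 and 6.66 in recovered oesophagus (−2.59 ± 0.16), and 6.58 and 6.84 in vagina before transplantation, against 4.86 and 4.49 in oesophagus (2.04 ± 0.16). Akap12, a scaffold for protein kinase A, measured 5.75 and 5.75 in recovered vagina, against 7.75 and 7.72 in recovered oesophagus (−1.99), with 2.10 before. No gene turned the other way.

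**Figure D5:**
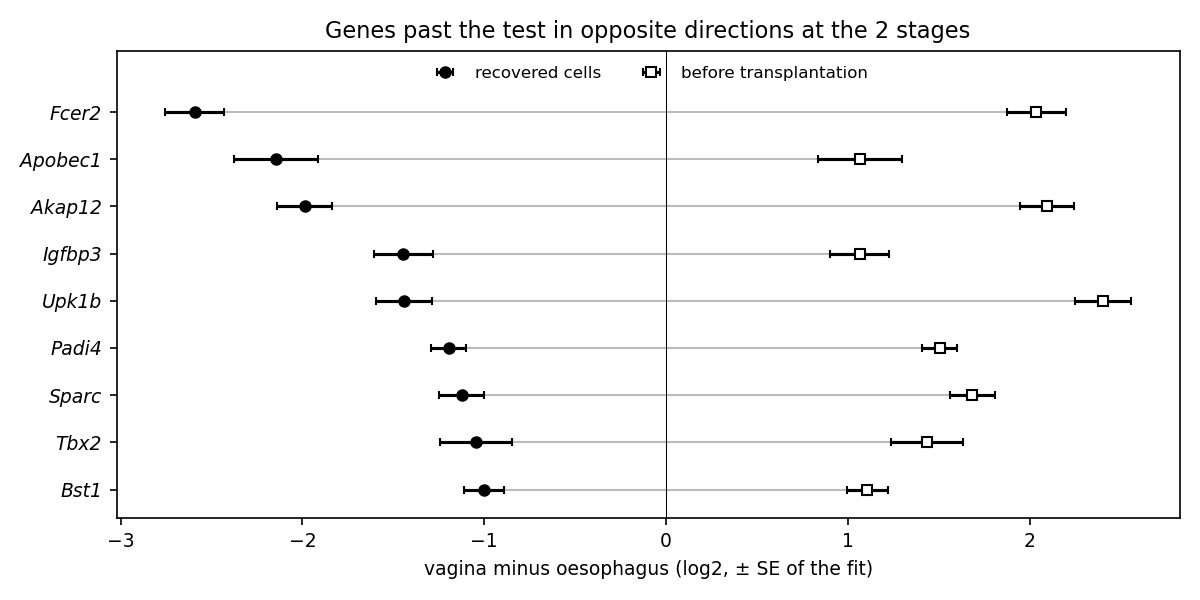
Difference between vagina and oesophagus cells (log2, vagina minus oesophagus, with the standard error of the fit) for the 9 genes called in opposite directions, with recovered cells as filled circles and cells before transplantation as open squares. All 9 circles lie left of 0 and all 9 squares right of 0, with Fcer2 and Upk1b among the widest apart.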

How the data were processed

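Cells of 5 rat tissues, before transplantation and after recovery, were hybridized to Affymetrix Rat Gene ST 1.0 arrays in duplicate (20 arrays). The authors deposited log2 values made by RMA in Affymetrix Expression Console, with version and background settings not given in the sources used here. RMA draws all arrays to 1 distribution, so a shift shared by most genes would not be seen. The number of arrays limits the precision, and no detection calls were used.

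Of 29215 probe sets 15310 had 1 symbol, 323 several and 13582 none. Gene IDs of 15279 matched RefSeq (GRCr8). Of the 14506 symbols 527 had several probe sets, and the one with the highest mean over 20 arrays was used. Group means were fitted over all 20 arrays with limma 3.58.1 in R 4.3.3 (statmod 1.5.0 for the block; residual df 10, prior df 3.64), with Benjamini-Hochberg adjustment over all 29215 probe sets, and the fit was tested on simulated data. Differences were called at an adjusted p under 0.05 and a fold over 2. Genes named were the 3 markers, the 12 largest differences in each direction among genes whose higher mean was at least 4.77 (the 40th percentile of probe set means), up to 4 members a direction of each gene list, or 1 where none was called, the 8 in each direction with the largest difference held at both stages, and the 6 with the largest change among genes called only after and only before. The members and lists were chosen with earlier results of these data known. Alternatives were the 4 arrays alone, a replicate block, median centring, a filter on low probe sets, trend with robust spread, array weights, a test against a fold of 1.2, a fold threshold of 1.5, adjustment over genes with a symbol, the mean of a gene's probe sets, and each array left out.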

Additional observations from a re-analysis of the deposited data

Results flagged for a closer look

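Of the 88 genes named by the rule, 49 had a difference between vagina and oesophagus that changed with transplantation by the test of the change itself (limma adjusted p 2.94e-10 to 0.0184). The values below are the difference in recovered cells minus the difference before transplantation, on the log2 scale.

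The difference shifted upward in recovered cells for 11 genes, namely Krt4 (2.46), Jmjd8 (2.41), Gata3 (2.19), Il33 (1.95), Hoxd13 (1.84), Lhx2 (1.82), Hoxa11 (1.81), Cpa4 (1.64), Spon2 (1.46), Sox2 (1.37) and Il1r2 (1.27).

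It shifted downward for 38 genes. Those that were called lower in recovered vagina were Myef2 (−5.22), Fcer2 (−4.63), Upk1b (−3.85), Apobec1 (−3.21), Akr1b1 (−3.09), Sparc (−2.81), Igfbp3 (−2.51), Tbx2 (−2.48), Abcg3l3 (−2.46), Emb (−2.41), Adm2 (−2.36), Dnajc18 (−2.35), Krt13 (−2.31), Mal (−2.18), Pdgfc (−2.01), Tspan8 (−1.92), Igfbp2 (−1.68), Gdpd2 (−1.54), Krt20 (−1.54), Adm (−1.54), Car2 (−1.39), Hmox1 (−1.35) and Bmpr1b (−1.27). Those that were called higher in recovered vagina were Cd200 (−3.75), Plscr2 (−2.57), Il18 (−2.16), Plet1 (−2.05), Vim (−1.25) and Serpinb9 (−1.17). Those not called in recovered cells were Prom1 (−5.02), Slc17a3 (−3.66), Hyal1 (−3.54), Gnai1 (−3.18), Arhgef6 (−3.11), Mgp (−3.10), Hsd11b1 (−1.39), Wnt7b (−1.14) and Ptgs1 (−1.08). Several of these genes, among them Krt4, Myef2, Jmjd8, Fcer2, Cd200 and Il18, had a recovered group under 4.77, so their values may be limited by background, which was not tested.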

How the results depend on the processing

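The 142 genes that separated recovered vagina from recovered oesophagus became 238 (79 higher, 159 lower) in a test against a fold of 1.2 and 382 (145 higher, 237 lower) with a fold threshold of 1.5. Under these 2 settings the genes called before transplantation were 528 and 798 (main 307), and those with 1 direction at both stages 84 and 131 (main 46). The genes with a changed difference were 717 (main 353) with a fold threshold of 1.5. The other settings kept all these counts within 1.5 times. Leaving out 1 array at a time, with the lone sample assumed to vary like the other groups, gave 131 to 141 genes in recovered cells (44 to 49 higher, 83 to 95 lower), 301 to 315 before transplantation, 332 to 367 for the change and 44 to 47 for both stages. The replicate numbers did not pair the samples (correlation of same-numbered deviations −0.01 after and −0.06 before), and with the replicate block the counts were 142, 307, 354 and 46. Of the 60 named genes called in recovered cells none reversed under any setting. With the 4 arrays alone Cd200, Il1r2, Pdgfc, Sparc, Tbx2 and Vim lost their call, and in the test against a fold of 1.2 Lhx2, Serpinb11 and Tbx2 did. The cause was not tested. Of the 142 genes 39 had the lower mean under 4.77 and 4 both means (among them Il18 and Tmprss11f), so background may limit their differences.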
